A study of Mus musculus with 6 samples.

Results

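The genes examined were Figla, Nobox, Sohlh1, Sohlh2, Lhx8, Taf4b and Ybx2, 7 genes known from oocytes of early follicles, chosen by symbol among the 44788 genes listed for mouse ovaries. RNA-seq was performed on whole ovaries of C57BL/6 J mice that the labels give as 8 weeks old, with 3 wild-type (Bnc1+/+) ovaries, replicates 1, 4 and 7, and 3 Bnc1tr/tr ovaries, replicates 1, 2 and 3. Bnc1tr/tr mice are homozygous, in every cell of the body, for a short frameshift deletion in Bnc1, the gene of the zinc finger protein basonuclin 1. Each library held between 25247770 and 34406296 reads counted on genes. All 7 genes were above the filter on low counts.

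As background, the forming and keeping of primordial follicles depends on a small set of germ cell transcription factors, several of which also switch on the genes of the growing oocyte. Sohlh1 and Sohlh2 encode basic helix-loop-helix proteins that act as partners at the start of this series, and both bind short DNA words called E-boxes. Figla encodes another helix-loop-helix factor, which drives the zona pellucida genes, while Nobox and Lhx8 encode homeodomain proteins needed for follicles to form and grow. Taf4b encodes a gonad-enriched subunit of the general transcription factor TFIID, and Ybx2 encodes a germ cell Y-box protein (MSY2) that binds and stores maternal mRNA. Loss of any of them in mice impairs the ovarian reserve or female fertility.

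The sequences upstream of 4 of these genes are shown first, because E-boxes are the words that SOHLH1, SOHLH2 and FIGLA read. Each window runs from 250 bases before to 50 bases after the start annotated by RefSeq in GRCm38.p6, and is written 5′ to 3′ on the strand of the gene. Capitals mark E-boxes (CANNTG, which reads the same on both strands) in Sohlh1, Figla and Nobox, and the word ATTGG (either strand, the core of the Y-box that YBX2 was named for) in Ybx2. The windows lie at chr2:25847199-25847498 (minus strand) for Sohlh1, chr6:86016941-86017240 (plus strand) for Figla, chr6:43309505-43309804 (minus strand) for Nobox and chr11:69935649-69935948 (plus strand) for Ybx2.
Sohlh1: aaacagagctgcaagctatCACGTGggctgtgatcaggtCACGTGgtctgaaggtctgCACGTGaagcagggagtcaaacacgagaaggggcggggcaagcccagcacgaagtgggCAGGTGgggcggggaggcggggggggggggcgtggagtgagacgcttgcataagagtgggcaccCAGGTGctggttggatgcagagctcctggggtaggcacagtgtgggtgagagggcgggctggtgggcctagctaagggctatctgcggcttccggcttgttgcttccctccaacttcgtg
Figla: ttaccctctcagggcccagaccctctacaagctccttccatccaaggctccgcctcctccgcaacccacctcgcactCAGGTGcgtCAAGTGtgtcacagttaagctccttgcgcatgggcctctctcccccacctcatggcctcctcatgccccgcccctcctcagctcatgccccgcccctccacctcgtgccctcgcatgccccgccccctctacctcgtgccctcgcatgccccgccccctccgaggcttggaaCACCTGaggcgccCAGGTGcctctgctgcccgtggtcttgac
Nobox: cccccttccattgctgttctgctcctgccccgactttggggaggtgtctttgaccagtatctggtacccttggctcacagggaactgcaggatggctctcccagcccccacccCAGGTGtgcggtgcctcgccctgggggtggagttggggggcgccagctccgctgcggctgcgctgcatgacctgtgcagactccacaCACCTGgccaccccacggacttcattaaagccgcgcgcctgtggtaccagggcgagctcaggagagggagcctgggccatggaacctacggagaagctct
Ybx2: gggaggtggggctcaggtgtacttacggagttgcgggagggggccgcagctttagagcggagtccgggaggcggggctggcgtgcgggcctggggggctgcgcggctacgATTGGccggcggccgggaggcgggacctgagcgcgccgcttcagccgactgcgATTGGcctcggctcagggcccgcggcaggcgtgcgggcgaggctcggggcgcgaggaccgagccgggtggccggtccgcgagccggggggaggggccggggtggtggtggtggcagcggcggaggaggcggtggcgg
The Sohlh1 window held 5 E-boxes, of which 3 were the palindrome CACGTG, itself a form of CANNTG. Among the 32544 different windows of this length in the RefSeq table, 72.3% held at least 1 CANNTG and 7.17% at least 1 CACGTG, and 0.0891% held 3 or more CACGTG. The Figla window held 4 E-boxes, the Nobox window 2, the Sohlh2 window 1 and the Lhx8 window 0. The Ybx2 window shown held 1, which is left in lower case. Of all windows, 39.6% held at least 2 E-boxes and 17.6% at least 3. The Ybx2 window shown held ATTGG 2 times, while 37.4% of all windows held it at least once and 11.6% at least 2 times. RefSeq lists a second start of Ybx2, 532 bases downstream of the start in GENCODE M21, whose window held ATTGG 0 times. The word TAATTG, known from NOBOX binding, was in 8.01% of all windows on either strand and in none of the windows of these 6 genes. These matches describe letters only, and the counts of RNA do not show which protein sat on them. The RefSeq start of Figla lies 1020 bases downstream of the start of the gene in GENCODE M21, and that of Ybx2 lies 103 bases downstream, so these windows depend on the annotation.

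To ask whether the early oocyte factors differ between the genotypes, each gene was compared with edgeR's quasi-likelihood test across 19423 genes, with Benjamini-Hochberg adjustment over all of them and a threshold of 0.05. Levels are given as TMM-normalized CPM, the reads of a gene as a share of its library after scaling the libraries to each other. Nobox and Ybx2 were higher in every Bnc1tr/tr ovary than in any Bnc1+/+ ovary, Sohlh1 was lower in every Bnc1tr/tr ovary, and the other 4 genes overlapped between the genotypes. None of the 7 genes passed the threshold (0 of 7), where 7.06% of all genes tested did, 2.88% of them higher and 4.19% lower in Bnc1tr/tr ovaries. At an unadjusted p under 0.05, Nobox, Ybx2 and Sohlh1 passed (3 of 7, against 24.2% of all genes), and genotypes that did not overlap were found in 3 of 7 genes against 30.8% of all genes. With DESeq2 in place of edgeR, 2 of the 7 passed (Nobox and Ybx2, against 12.5% of all genes), and with limma-voom 0 of 7 (6.71% of all genes). In whole ovaries a change in the number of oocytes and a change in the RNA per oocyte cannot be told apart.

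**Figure D1:**
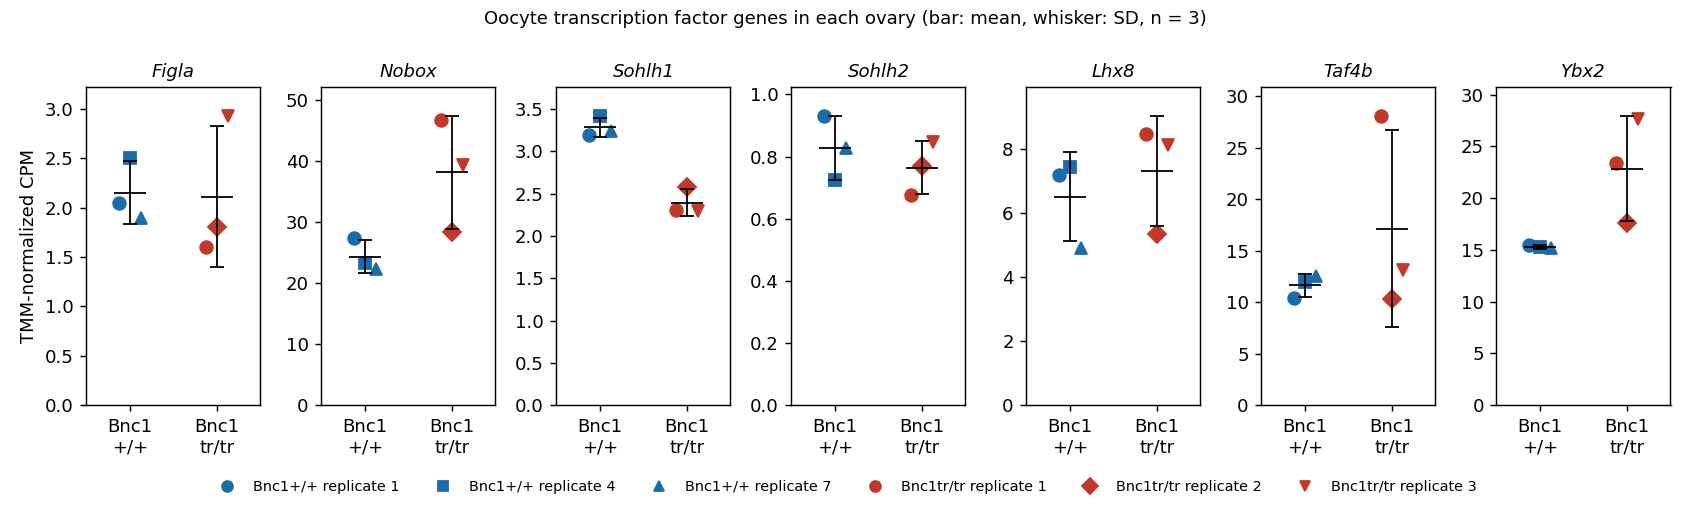
TMM-normalized CPM (y axis, starting at 0 in each panel) of the 7 genes in each of the 6 ovaries, with the mean and SD of the 3 ovaries of each genotype. Nobox and Ybx2 do not overlap between the genotypes and are higher in Bnc1tr/tr, Sohlh1 does not overlap and is lower, and Bnc1tr/tr replicate 1 stands alone for Taf4b at 28.1 CPM.

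Nobox, whose product is a homeodomain activator of Gdf9 and other growing-oocyte genes, lies on chromosome 6 of GRCm38 (43303674 to 43309554, minus strand). It was at 27.4, 23.2 and 22.3 CPM in Bnc1+/+ replicates 1, 4 and 7 and at 46.7, 28.4 and 39.4 CPM in Bnc1tr/tr replicates 1, 2 and 3. Bnc1tr/tr replicate 2 sat just above the highest Bnc1+/+ ovary, and the other 2 Bnc1tr/tr ovaries were well above it. The means were 24.3 ± 2.70 and 38.1 ± 9.21 CPM (SD, n = 3 each), with a log2 fold change of 0.65 (standard error 0.18, 95% interval 0.23 to 1.07). The adjusted p from edgeR with Benjamini-Hochberg adjustment was 0.0722, short of the threshold. Nobox also missed the threshold when any ovary other than Bnc1tr/tr replicate 2 was left out (edgeR, adjusted p from 0.105 to 0.234). With limma-voom the adjusted p was 0.0856. Nobox passed with DESeq2 (adjusted p = 0.011). By edgeR it also passed without Bnc1tr/tr replicate 2 (adjusted p = 0.0209, where 6.40% of all genes passed), with library size as the only scaling (adjusted p = 0.0432, 8.90% of all genes) and without the filter on low counts (adjusted p = 0.048, 4.82% of all genes).

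Ybx2 lies on chromosome 11 (69935796 to 69941605, plus strand). Its levels in Bnc1+/+ replicates 1, 4 and 7 were 15.5, 15.3 and 15.1 CPM. In Bnc1tr/tr replicates 1, 2 and 3 they were 23.4, 17.6 and 27.6 CPM. The Bnc1+/+ ovaries were almost level with each other, while the Bnc1tr/tr ovaries were spread, again with replicate 2 nearest to wild type. The log2 fold change was 0.58 (standard error 0.16, 95% interval 0.21 to 0.95, edgeR adjusted p = 0.0725 with Benjamini-Hochberg adjustment). Leaving out any ovary other than Bnc1tr/tr replicate 2 gave an edgeR adjusted p from 0.131 to 0.220. With limma-voom the adjusted p was 0.0916. Ybx2 passed without Bnc1tr/tr replicate 2 (edgeR, adjusted p = 0.0189), with DESeq2 (adjusted p = 0.0179) and with library size only (edgeR, adjusted p = 0.0435).

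Sohlh1 ran the other way. The gene lies on chromosome 2 (25842995 to 25847248, minus strand), and 86, 113 and 94 reads were counted on it in Bnc1+/+ replicates 1, 4 and 7 and 65, 67 and 65 reads in Bnc1tr/tr replicates 1, 2 and 3. As CPM these were 3.20, 3.41 and 3.24 in Bnc1+/+ ovaries and 2.31, 2.58 and 2.29 in Bnc1tr/tr ovaries. Sohlh1 was the only 1 of the 7 genes whose highest Bnc1tr/tr value lay below its lowest Bnc1+/+ value, which held for 15.8% of all genes tested. Both groups were tight, with less spread than counting error gives on average (chi-square over degrees of freedom 0.123 in Bnc1+/+ and 0.288 in Bnc1tr/tr). With so few reads, this tightness does not show how alike the ovaries were. The exact Poisson 95% intervals of the nearest counts overlapped. They ran from 51.9 to 85.1 for the 67 reads of Bnc1tr/tr replicate 2 and from 68.8 to 106 for the 86 reads of Bnc1+/+ replicate 1. The means were 3.28 ± 0.115 and 2.39 ± 0.161 CPM (SD, n = 3 each), a log2 fold change of -0.46 (standard error 0.19, 95% interval -0.89 to -0.02). The adjusted p was 0.189 with edgeR and Benjamini-Hochberg adjustment and lay between 0.157 and 0.392 across 13 other settings. In 1 further setting, with the libraries scaled so that a list of 25 oocyte reference genes is level in every ovary, Sohlh1 passed (log2 fold change -1.01, edgeR adjusted p = 0.0459), where 19.3% of all genes did.

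Sohlh2, which encodes the dimer partner of SOHLH1 and lies on chromosome 3 (55182028 to 55209957, plus strand), was the least abundant of the genes. Only 25, 24 and 24 reads fell on it in Bnc1+/+ replicates 1, 4 and 7, with 19, 20 and 24 reads in Bnc1tr/tr replicates 1, 2 and 3. The exact Poisson 95% interval of the lowest of these, 19 reads, ran from 11.4 to 29.7 and so held all 6 counts, and it covers counting error only. The levels were 0.827 ± 0.102 and 0.764 ± 0.0852 CPM (SD, n = 3 each), and the log2 fold change was -0.11 (standard error 0.27, 95% interval -0.73 to 0.50, edgeR adjusted p = 0.834). A change of the size seen for Nobox would lie outside this interval on the higher side, whereas one of the size seen for Sohlh1 would lie inside it.

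Figla lies on chromosome 6 (86016171 to 86020996, plus strand). It was at 2.04, 2.51 and 1.90 CPM in the Bnc1+/+ ovaries and at 1.60, 1.81 and 2.93 CPM in Bnc1tr/tr replicates 1, 2 and 3. Both the lowest and the highest of the 6 values came from Bnc1tr/tr ovaries. The log2 fold change was -0.03 (standard error 0.29, 95% interval -0.70 to 0.65, edgeR adjusted p = 0.969), and its sign turned with the scaling and with the ovaries used. Lhx8, on chromosome 3 (154306294 to 154330659, minus strand), was at 7.17, 7.43 and 4.90 CPM in Bnc1+/+ replicates 1, 4 and 7 and at 8.47, 5.35 and 8.11 CPM in Bnc1tr/tr replicates 1, 2 and 3. Bnc1+/+ replicate 7 and Bnc1tr/tr replicate 2 were low and the other 4 ovaries were close together. Its log2 fold change was 0.17 (standard error 0.24, 95% interval -0.38 to 0.72, edgeR adjusted p = 0.707).

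Taf4b, on chromosome 18, depended on a single ovary. Its levels were 10.4, 12.0 and 12.5 CPM in the Bnc1+/+ ovaries and 28.1, 10.3 and 13.1 CPM in Bnc1tr/tr replicates 1, 2 and 3. Replicate 1 was more than any other ovary by a wide margin, and replicate 2 was the lowest of all 6. The log2 fold change was 0.56 (standard error 0.34, 95% interval -0.23 to 1.35, edgeR adjusted p = 0.36), and it was 0.01 without Bnc1tr/tr replicate 1. Taf4b is also known from granulosa cells. Annotation places a processed pseudogene, AC133172.1, inside the gene on the same strand, and no annotated gene overlaps any of the other 6.

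**Figure D2:**
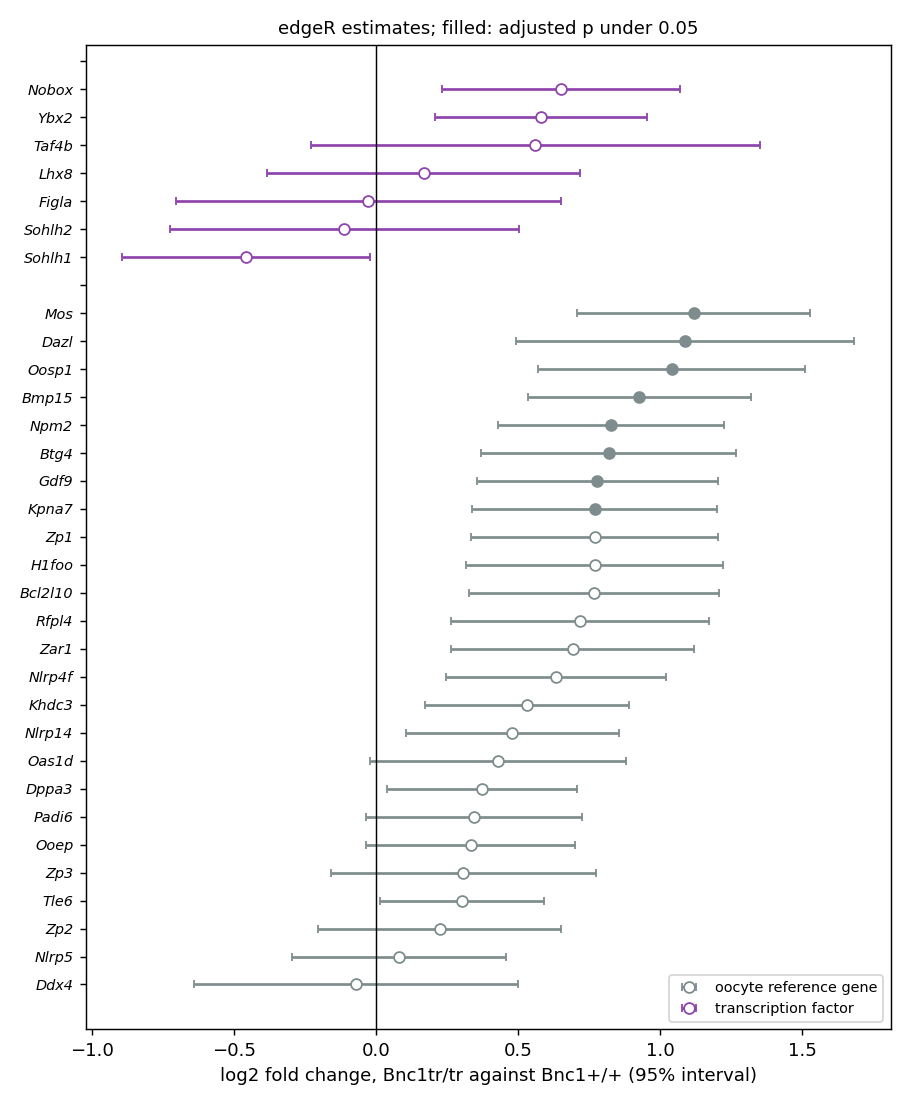
Log2 fold changes (x axis, Bnc1tr/tr against Bnc1+/+) with 95% intervals from edgeR for the 7 genes (upper block) and for 25 oocyte reference genes (lower block), filled where the adjusted p was under 0.05. None of the 7 and 8 of the 25 are filled, and the 7 run from -0.46 for Sohlh1 to 0.65 for Nobox.

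The genes were next set in order of abundance, as CPM per kilobase of annotated exon. In Bnc1+/+ ovaries Nobox was highest at 12.1 ± 1.34 and Ybx2 second at 8.11 ± 0.0870 CPM per kilobase (SD, n = 3 each), and Nobox exceeded Ybx2 in 6 of 6 ovaries. Figla (2.57 ± 0.381), Lhx8 (2.57 ± 0.551) and Sohlh1 (2.55 ± 0.0888) had overlapping Bnc1+/+ levels and cannot be ordered. Taf4b, at 2.26 ± 0.212, overlapped Figla and Lhx8 and cannot be ordered against them. It was below Sohlh1 in each Bnc1+/+ ovary by a small step but above it in 2 of the 3 Bnc1tr/tr ovaries. Sohlh2 was last at 0.350 ± 0.0432 CPM per kilobase and below Taf4b in 6 of 6 ovaries.

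Genes that encode products acting beside and downstream of these factors were then examined from lists written from general knowledge. Of 16 oocyte genes known to need FIGLA, NOBOX, SOHLH1 or LHX8 (downstream genes such as those for the zona pellucida), all 16 had a positive log2 fold change and 4 were DEGs, all 4 higher in Bnc1tr/tr, where 2.88% of all genes tested were called in this direction. Their median log2 fold change was 0.71, against 0.018 over all genes tested, and 12 of the 16 did not overlap between the genotypes, which held in this direction for 15.0% of all genes. Mos, which encodes the kinase of meiotic arrest in eggs, was at 22.1, 19.2 and 16.1 CPM in Bnc1+/+ replicates 1, 4 and 7 and at 49.8, 32.7 and 42.1 CPM in Bnc1tr/tr replicates 1, 2 and 3. Mos rose by a log2 fold change of 1.12 (standard error 0.18, edgeR adjusted p = 0.012), and the other 3 DEGs were Oosp1, of an oocyte-secreted protein (1.04, edgeR adjusted p = 0.0262), Bmp15, of an oocyte growth factor (0.93, edgeR adjusted p = 0.0204), and Gdf9, of its partner growth factor (0.78, edgeR adjusted p = 0.0458). The number of DEGs was 0 without Bnc1+/+ replicate 4 or 7, where the share of all genes called higher fell to 0.470% and 0.621%. It was 1 without Bnc1tr/tr replicate 3 (1.15% of all genes), 2 without Bnc1+/+ replicate 1 (1.21%), 3 without Bnc1tr/tr replicate 1 (1.79%) and 11 without Bnc1tr/tr replicate 2 (3.09%).

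Among 7 other factors known from oocytes (Tbpl2, Stat3, Sub1, Dynll1, Foxo3, Pou5f1 and Sall4), 1 was a DEG, where 7.06% of all genes tested were. Dynll1, a dynein light chain gene expressed in many cells, was at 134, 135 and 134 CPM in Bnc1+/+ replicates 1, 4 and 7 and at 173, 192 and 231 CPM in Bnc1tr/tr replicates 1, 2 and 3. Every Bnc1tr/tr ovary was above every Bnc1+/+ ovary, which held in this direction for 15.0% of all genes. The log2 fold change was 0.56 (standard error 0.11, edgeR adjusted p = 0.0294). It missed the threshold when any ovary other than Bnc1tr/tr replicate 1 was left out (edgeR, adjusted p up to 0.134). Stat3 was lower in every Bnc1tr/tr ovary than in any Bnc1+/+ ovary, which held for 15.8% of all genes (log2 fold change -0.27, edgeR adjusted p = 0.218). The median log2 fold change of the 7 was 0.16.

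Of the 5 partner genes (Tcf3, Tcf4, Tcf12, Ldb1 and Ldb2), which encode E proteins that pair with helix-loop-helix factors and cofactors of LIM proteins, 0 were DEGs by edgeR, 0 had an unadjusted p under 0.05 and 0 were called by DESeq2 or limma-voom. Over all genes tested, 7.06% were DEGs by edgeR, 24.2% had an unadjusted p under 0.05, DESeq2 called 12.5% and limma-voom 6.71%. The E protein gene Tcf3 was at 172 ± 6.54 and 172 ± 9.29 CPM in Bnc1+/+ and Bnc1tr/tr ovaries, and the LIM cofactor gene Ldb1 at 229 ± 23.0 and 239 ± 14.1 CPM (SD, n = 3 each). The 95% interval of the log2 fold change was -0.19 to 0.19 for Tcf3 and -0.17 to 0.29 for Ldb1. Tcf12 and Ldb2, named after their values were seen, were lower in every Bnc1tr/tr ovary than in any Bnc1+/+ ovary (2 of 5, against 15.8% of all genes), with log2 fold changes of -0.12 and -0.45. Of 15 tested genes for TFIID subunits, the complex that TAF4B joins, 0 were DEGs by edgeR (7.06% of all genes). An unadjusted p under 0.05 was found for 4 (24.2%), and 1 (Taf3) was called by DESeq2 (12.5%). Without overlap between the genotypes, 5 of the 15 were higher (15.0% of all genes) and 2 were lower (15.8%) in Bnc1tr/tr. The log2 fold changes of the 15 ran from -0.26 to 0.40. The 2 most abundant, Taf6 and Taf11, had log2 fold changes of -0.04 and -0.01. Taf4a, the symbol used for the broadly expressed paralog of Taf4b, was at 33.5 ± 1.25 and 37.9 ± 2.84 CPM (SD, n = 3 each). It was at 40.5, 38.4 and 34.9 CPM in Bnc1tr/tr replicates 1, 2 and 3, each above the highest Bnc1+/+ ovary at 34.6 CPM (15.0% of all genes). Replicate 1 was thus the highest for Taf4a too, but by a small step, unlike for Taf4b. The reads on Taf4b came to 32.4%, 35.3% and 36.2% of those on Taf4a in Bnc1+/+ replicates 1, 4 and 7 and to 69.3%, 26.8% and 37.7% in Bnc1tr/tr replicates 1, 2 and 3. The broadly expressed Y-box genes Ybx1 and Ybx3 were at 733 ± 50.7 and 886 ± 196 CPM and at 210 ± 12.0 and 242 ± 7.95 CPM (SD, n = 3 each), with log2 fold changes of 0.27 and 0.21. Neither was a DEG by edgeR (0 of 2), 1 of them, Ybx3, had an unadjusted p under 0.05, and DESeq2 called 0.

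Markers of the cell types in the ovary moved between the libraries, and their part in the results for the 7 genes was not tested. Of 25 oocyte reference genes, which include 13 of the 16 downstream genes, 8 were DEGs, all higher in Bnc1tr/tr (2.88% of all genes). In 16 of the 25 the genotypes did not overlap, all 16 higher in Bnc1tr/tr, against 15.0% of all genes. The summed level ran from 1266 to 1616 CPM in Bnc1+/+ and from 1594 to 2383 CPM in Bnc1tr/tr ovaries, so the sums overlapped. The count of 8 was 0 without Bnc1+/+ replicate 4 or 7, where 0.470% and 0.621% of all genes were called higher. It was 1 without Bnc1tr/tr replicate 3 (1.15% of all genes) and 2 without Bnc1tr/tr replicate 1 (1.79%). Without Bnc1+/+ replicate 1 it was 3 (1.21%), and without Bnc1tr/tr replicate 2 it was 17 (3.09%). Besides the 4 downstream genes named above, the DEGs were Npm2 (log2 fold change 0.83), of an egg histone chaperone, Btg4 (0.82), of a factor in the clearing of maternal mRNA, Kpna7 (0.77), of an oocyte importin, and Dazl (1.09), of a germ cell RNA-binding protein. Of 9 corpus luteum genes, 7 were DEGs, all lower, where 4.19% of all genes tested were called in this direction. The sum of the 9 ran from 22677 to 26455 CPM in Bnc1+/+ and from 6970 to 12489 CPM in Bnc1tr/tr ovaries. The 7 were Lhcgr, the luteinizing hormone receptor gene (log2 fold change -3.01), Ptgfr, Prlr and Scarb1, of other receptors, and Star, Cyp11a1 and Hsd3b1, of progesterone synthesis. Leaving out 1 ovary gave 2 (without Bnc1+/+ replicate 4 or 7), 3 (Bnc1tr/tr replicate 3), 4 (Bnc1+/+ replicate 1) or 6 DEGs (Bnc1tr/tr replicate 1 or 2). The number called lower over all genes tested, 813 with all ovaries, fell as well. It was 226 and 394 without Bnc1+/+ replicates 4 and 7, 405 without Bnc1tr/tr replicate 3 and 541 without Bnc1+/+ replicate 1. Without Bnc1tr/tr replicates 1 and 2 it was 620 and 662. Of 10 granulosa genes, 5 had a positive and 5 a negative log2 fold change (median 0.14). Without overlap between the genotypes, 2 of the 10 were higher (15.0% of all genes) and 1 was lower (15.8%) in Bnc1tr/tr. Their sums were 3680 to 4828 CPM in Bnc1+/+ and 4105 to 6348 CPM in Bnc1tr/tr ovaries, and 1 of the 10 was a DEG (7.06% of all genes). This was Amh, of the anti-Müllerian hormone of growing follicles (log2 fold change 1.06, edgeR adjusted p = 0.0294), which missed the threshold when any ovary other than Bnc1tr/tr replicate 2 was left out (edgeR, adjusted p up to 0.105). Of 7 oviduct genes 0 were DEGs by edgeR (7.06% of all genes), 1 was called by DESeq2 (12.5%) and 1 had an unadjusted p under 0.05 (24.2%). Their sums were 24.3 to 147 CPM in Bnc1+/+ and 11.3 to 528 CPM in Bnc1tr/tr ovaries. The most abundant of them, Ovgp1 and Foxj1, had log2 fold changes of 1.75 and 2.03 (edgeR adjusted p = 0.552 and 0.455) and were highest in Bnc1tr/tr replicate 3, at 423 and 37.1 CPM. The gene with the unadjusted p under 0.05 was Pax8 (log2 fold change 1.65, edgeR adjusted p = 0.0862). It alone was higher in every Bnc1tr/tr ovary (1 of 7, against 15.0% of all genes), while Rsph1 had a log2 fold change of -0.27. Of 2 theca genes (Cyp17a1 and Insl3) 0 were DEGs by edgeR or DESeq2 and 0 had an unadjusted p under 0.05 (7.06%, 12.5% and 24.2% of all genes). Their sum of 240 CPM in Bnc1tr/tr replicate 1, the ovary with high Taf4b, was above the 6.85 to 128 CPM of the other ovaries. Almost all of that sum was Cyp17a1, at 235 CPM. Insl3 was at 4.80 CPM there and at 2.57 to 4.28 CPM in the other ovaries. No marker of these lists was at 0 in all ovaries. Bnc1 itself had 375, 444 and 381 reads in Bnc1+/+ and 527, 355 and 326 reads in Bnc1tr/tr ovaries (log2 fold change 0.12, edgeR adjusted p = 0.733), and reads summed over a gene do not show a deletion of a few bases.

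The 7 factors and the 25 oocyte reference genes are all known from oocytes. Each factor was therefore also measured against the mean log2 CPM of the 25 oocyte reference genes of the same ovary. Whole ovaries hold oocytes of several stages as well as other cells, so this ratio is not a level per oocyte. Whether the mix of stages differed between these ovaries was not tested. That mean was 5.23, 5.16 and 4.89 in Bnc1+/+ replicates 1, 4 and 7 and 5.91, 5.31 and 5.82 in Bnc1tr/tr replicates 1, 2 and 3, a difference of 0.58 (exact two-sided permutation test, p = 0.1, the smallest that 3 ovaries against 3 allow). Measured this way, the genotypes overlapped for Nobox, Ybx2 and Taf4b, and the difference between the genotypes was largest for Sohlh1. The log2 ratio of Nobox to the list was -0.46, -0.61 and -0.41 in Bnc1+/+ replicates 1, 4 and 7 and -0.36, -0.48 and -0.52 in Bnc1tr/tr replicates 1, 2 and 3, a difference of 0.04 (exact two-sided permutation test, p = 0.7). For Ybx2 the difference was -0.03 (exact two-sided permutation test, p = 0.8), and for Taf4b it was -0.16 (exact two-sided permutation test, p = 0.7).

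The log2 ratio of Sohlh1 to the list was -3.53, -3.36 and -3.16 in Bnc1+/+ replicates 1, 4 and 7 and -4.66, -3.90 and -4.58 in Bnc1tr/tr replicates 1, 2 and 3. Every Bnc1tr/tr ovary was below every Bnc1+/+ ovary, and the difference of -1.03 corresponded to 0.490 of the Bnc1+/+ ratio. Sohlh2 (-0.69), Figla (-0.65) and Lhx8 (-0.42) were also lower relative to the list in all 3 Bnc1tr/tr ovaries. For these 4 genes the exact two-sided permutation test gave p = 0.1, again the smallest possible, so the threshold could not be reached. The share of all genes tested without overlap on this scale was not computed. The mean of the list was itself higher in every Bnc1tr/tr ovary than in any Bnc1+/+ ovary. A gene of unchanged CPM therefore has a lower ratio in Bnc1tr/tr ovaries. With the 3 zona pellucida genes alone as the reference, Sohlh2 (-0.52) and Figla (-0.47) overlapped between the genotypes (p = 0.2 in both exact permutation tests), and the difference of Lhx8 was -0.25. Without Bnc1tr/tr replicate 1 the difference of Figla was -0.36. On the same scale the median log2 fold change of all genes tested was -0.55, so the differences of Figla, Sohlh2 and Lhx8 were close to that of a gene taken from the middle of the library, and that of Sohlh1 was below it. Each of the 25 reference genes was set against the other 24 in the same way. Their differences ran from -0.71 for Ddx4, a germ cell RNA helicase gene, to 0.54 for Mos, 9 of the 25 were lower and 10 higher without overlap, and 0 of the 25 had a difference below that of Sohlh1.

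**Figure D3:**
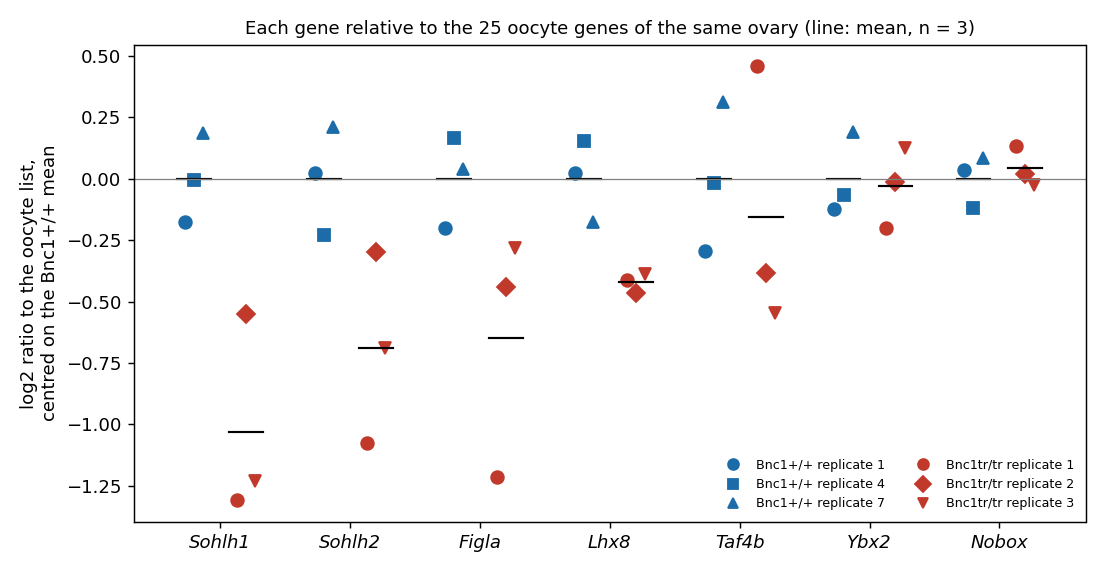
Log2 ratio of each gene to the mean of 25 oocyte reference genes in the same ovary (y axis), centred on the Bnc1+/+ mean of that gene, with a line at the mean of each genotype. Sohlh1 has a difference of -1.03 and Nobox one of 0.04, and the Bnc1tr/tr points lie below all Bnc1+/+ points for Sohlh1, Sohlh2, Figla and Lhx8. The share of all genes tested for which this holds was not computed.

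Ratios between 2 of the genes within an ovary need no scaling of the libraries. Of the 21 pairs, which reuse the same 7 genes, 9 did not overlap between the genotypes, where 30.5% of all pairs of tested genes with reads in every ovary did not. The pair with the largest shift was Nobox and Sohlh1, chosen after its values were seen. Nobox had 8.56, 6.81 and 6.87 reads per read of Sohlh1 in Bnc1+/+ replicates 1, 4 and 7 and 20.2, 11.0 and 17.2 in Bnc1tr/tr replicates 1, 2 and 3. The mean ratios were 7.41 ± 0.993 for Bnc1+/+ and 16.1 ± 4.68 for Bnc1tr/tr (SD, n = 3 each), a difference of 1.08 on the log2 scale. The exact two-sided permutation test gave p = 0.1, and 0.233 after Benjamini-Hochberg adjustment over the 21 pairs. The ratio of Nobox to Ybx2 was 1.59 ± 0.159 and 1.68 ± 0.289 (SD, n = 3 each) and overlapped between the genotypes (exact two-sided permutation test, p = 0.7).

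The genes most like the 7 were sought by the Pearson r, over the 6 ovaries, between log2 CPM and the mean of the 7 standardized profiles, among 16747 genes with a mean of at least 1 CPM. The 8 highest were Scg3 (r = 0.997), Gm15387, Fbxl2, Serpina5, Nuf2, Morc1, LOC102634093 and Kif2c (r = 0.982). Scg3, a granin family gene, was at 2.53, 2.24 and 1.86 CPM in Bnc1+/+ replicates 1, 4 and 7 and at 2.63, 1.73 and 3.35 CPM in Bnc1tr/tr replicates 1, 2 and 3. The mean profile was high in Bnc1tr/tr replicates 3 and 1 and low in Bnc1tr/tr replicate 2 and Bnc1+/+ replicate 7. It averages genes that went in opposite directions between the genotypes, so their differences cancel in it by construction and it is not a shape that all 7 had. With 6 libraries and this many genes, high values of r are found for some genes in any profile, and they are given as a description.

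**Figure D4:**
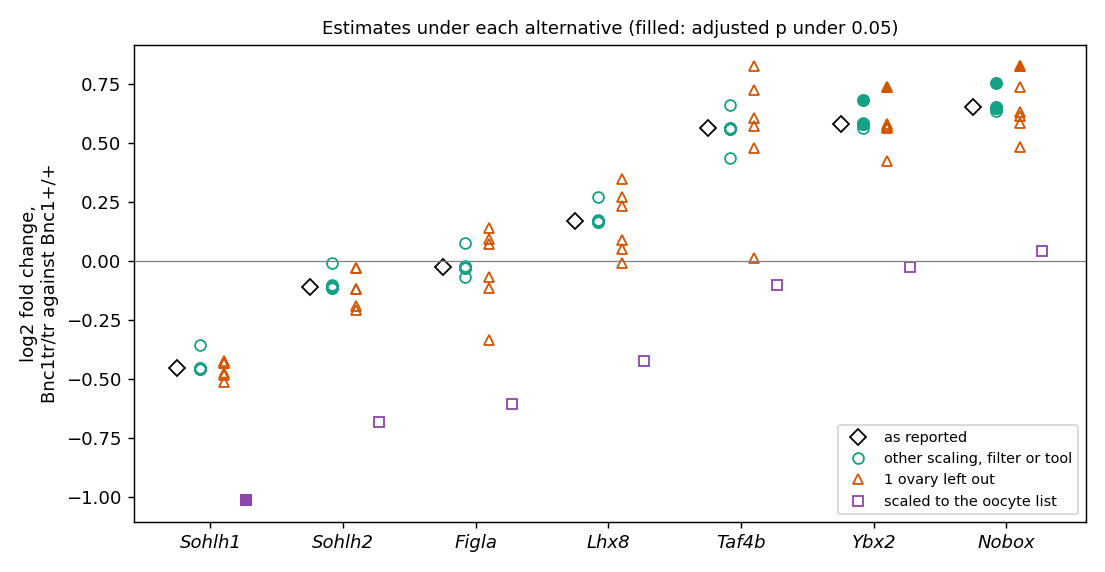
Log2 fold change of each gene (y axis) as reported, under other scalings, filters or tools, with 1 ovary left out, and with the libraries scaled to the oocyte reference list, filled where the adjusted p was under 0.05. Sohlh1 stays below 0 and Nobox above 0 in all of them, Figla lies on both sides of 0, and Taf4b falls to 0.01 when Bnc1tr/tr replicate 1 is left out.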

How the data were processed

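Whole mouse ovaries (6 samples) were lysed in TRIzol, and single-end libraries were read on an Ion Proton. The deposited values are raw read counts per gene symbol and ovary, which the authors did not normalize. The submitters' processing notes list the builds mm10 and Sscrofa10.2 with no role, and the aligner, counter and annotation are not given in the sources used here. Whether strand was used in counting is likewise not given. The 3 ovaries of a genotype were treated as replicates; since the labels do not tie them to separate animals, p-values measure the spread between these samples. No library was a duplicate: in the 6 pairs within a genotype, chi-square over its degrees of freedom ran from 16.7 to 64.0.

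Genes were filtered with filterByExpr (minimum count 10), normalized with TMM and compared with glmQLFit and glmQLFTest of edgeR 4.0.16 (R 4.3.3). Tests were two-sided, and p was adjusted by Benjamini-Hochberg over 19423 genes. DEGs were genes with an adjusted p under 0.05. DESeq2 1.42.0 and limma 3.58.1 (voom) served as alternatives. Ratios to the oocyte list used log2 CPM (prior count 2) and were compared with exact permutation tests (scipy 1.17.1). Intervals of log2 fold changes came from the edgeR statistic and its degrees of freedom. Coordinates and exon lengths were taken from GENCODE M21 (GRCm38), which may differ from the annotation the authors used, and promoter windows from RefSeq (GRCm38.p6), whose table was used for 6 of the 7 genes. The genes and lists were chosen with earlier results of these data known. All 7 genes were named, and of every other list the DEGs or, where there were none, the 2 most abundant genes. Taf3, Taf4a and other single genes named besides were chosen after their values were seen. In data simulated from these libraries (19153 genes), 57 of 99 genes with an absolute log2 fold change of 1 and 81 of 100 with 2 were called.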

Additional observations from a re-analysis of the deposited data

How the results depend on the processing

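No paired analysis was possible because the genotypes share only the replicate number 1 in the labels. The number of the 7 genes called, 0 as reported (7.06% of all genes), was 2 with library size only (8.90%), 1 with no filter (4.82%) and 2 with DESeq2 (12.5%). It was 0 to 2 when each ovary was left out, with the 2 found without Bnc1tr/tr replicate 2 (6.40%). With DESeq2 size factors, with at least 10 counts in every ovary, with limma-voom (6.71%) and with a robust edgeR fit it was 0. Scaling the libraries to the oocyte reference list, an alternative chosen after the data were seen, made 1 of the 7 pass (Sohlh1, log2 fold change -1.01, edgeR adjusted p = 0.0459), where 19.3% of all genes passed. Under that scaling the log2 fold change was -0.43 for Lhx8, -0.10 for Taf4b and -0.028 for Ybx2, each of opposite sign to the value reported, and 0 of the downstream genes, 0 of the oocyte reference genes, 1 of the partners (Ldb2) and 2 TFIID genes (Taf2 and Taf9b) passed. By edgeR with this scaling the lists are centred on the reference genes by construction. With library size only the median of all genes lay at 0.12 and Figla turned to 0.075. When each ovary was left out, the log2 fold change ran from -0.34 to 0.14 for Figla and from -0.0084 to 0.35 for Lhx8. The 4 downstream DEGs became 10 with library size only, 10 with no filter, 11 with DESeq2 and 0 to 11 when each ovary was left out. The 8 oocyte reference DEGs became 15, 14 and 16 under the same settings, 5 with limma-voom and 0 to 17 when each ovary was left out. Calls over all genes moved as well. Those called higher, 559 as reported, numbered 1112 with library size only, 625 with no filter, 1080 with DESeq2 and 519 with limma-voom. They numbered 94 to 620 when each ovary was left out. The TFIID count became 1 with library size only and 1 with DESeq2 (Taf3 in both), and the count of other oocyte factors 0 to 1 when each ovary was left out. The cause of these moves was not tested. Relative to the oocyte list, Nobox turned to -0.030 with the list's median, and with the zona pellucida genes alone Taf4b turned to 0.015 and Ybx2 to 0.14. Leaving out each ovary gave -0.019 to 0.084 for Nobox, -0.46 to 0.036 for Taf4b and -0.11 to 0.064 for Ybx2. Sohlh1, Sohlh2, Figla and Lhx8 kept a negative difference from the list under all 9 alternatives, for Sohlh1 between -1.27 and -0.86. The counts of Sohlh2, at most 25 reads, limit what can be seen for it.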
